A study of Sus scrofa with 8 samples.

Results

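GPX4, SOD1, CAT, PRDX1, PRDX5 and NFE2L2 were examined in pig liver as genes of the defence against peroxides and superoxide. They are 6 of the 10 genes named for this set, taken from a table of 21607 mRNA identifiers by the gene symbol paired with each identifier. For GPX1, GPX3, SOD2 and TXN no identifier of the table was paired with the symbol, and they were not analysed here. The 10 names were chosen by gene symbol with earlier results of these same young and old livers known. The differences of the 6 genes between the ages are therefore given as a description, with no test.

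Liver was taken from 4 sows of the Yana breed, a pig indigenous to China, all in good health. The young group was 2 sows aged 180 days that had not given birth, and the old group was 2 sows aged 8 years that had been culled after years of farrowing. Age and reproductive history cannot be told apart in these groups, and neither group carried a treatment or a genetic change. Each sow gave 1 library of rRNA-depleted RNA. Reads on listed mRNAs were 37555696 and 37125093 in young sows and 22482241 and 24866406 in old sows. Depth thus differed with age and cannot be told apart from it. Values are CPM, reads scaled to a library total that is not stated, and carry no gene length, so the levels of different genes are not compared here. The listed mRNAs summed to 408898 and 428910 CPM in young sows and to 365330 and 346173 CPM in old sows. Differences are old minus young on log2(CPM + 1). Of 12 hepatocyte markers looked up, 11 were measured and none was at 0 in any library. Their summed level was 87908 and 96100 CPM in young sows and 61934 and 65571 CPM in old sows. ALB and APOC3 carried most of this sum. Both old livers lay below both young livers for 5 of the 11 (45.5%, against 25.0% of all mRNAs tested), and the other 6 overlapped. The list median on log2(CPM + 1) overlapped too, at 10.56 and 10.99 in young sows and 10.70 and 10.42 in old sows. In bulk tissue, fewer cells of a type and less RNA per cell cannot be told apart.

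Superoxide dismutases turn superoxide into hydrogen peroxide, which is then removed by catalase, by glutathione peroxidases and by peroxiredoxins. Glutathione peroxidases draw their electrons from glutathione, and most peroxiredoxins draw theirs from thioredoxin. Both carriers are recharged with NADPH. The transcription factor NRF2, encoded by NFE2L2, switches on many of these genes and is held at a low level by KEAP1 and the ubiquitin ligase scaffold CUL3.

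GPX4 had by far the widest separation of the ages among the 6 genes. GPX4 is the glutathione peroxidase that reduces lipid hydroperoxides inside membranes, and its loss leads to the iron-dependent cell death called ferroptosis. Its level was 35.6 and 39.4 CPM in young replicates 1 and 2 and 236 and 260.5 CPM in old replicates 1 and 2. These values rest on 3271 and 3413 reads in young sows and 14536 and 18709 reads in old sows. The old mean was 6.62 times the young mean, while the livers of one age differed by at most 1.11 times. The GPX4 difference was 2.69 on log2(CPM + 1) (standard error 0.13, n = 2 per group) and ranged from 2.62 to 2.77 over the fits without 1 of the libraries. Of the 16898 mRNAs tested, 0.414% had a difference above that of GPX4.

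The genes beside GPX4 did not share its step. In the RefSeq gene order of the assembly Sscrofa11.1, used here only for names and order, SBNO2 and POLR2E flank GPX4. POLR2E, a subunit shared by the RNA polymerases, was at 57.1 and 54.3 CPM in young sows and 54.8 and 58.9 CPM in old sows, a difference of 0.03 (standard error 0.12). SBNO2 was at 3.64 and 1.12 CPM against 4.88 and 2.84 CPM, so its groups overlapped. This look at neighbours was chosen after the values had been seen.

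Markers of some blood-derived cells were higher in both old livers, and those of others were not. Among all mRNAs tested, both old livers lay above both young livers for 24.4% and below them for 25.0%. Of the 4 measured macrophage markers, of 10 looked up, CSF1R overlapped between the ages and the other 3 did not. Their summed level was 204 and 226 CPM in the young and 290.3 and 284 CPM in old sows. The 4 measured neutrophil markers, of 8 looked up, summed to 0.250 and 0.578 CPM against 8.43 and 2.14 CPM. Of the latter, S100A8 and MPO were at 0 in both young livers. The 5 measured T and NK cell markers, of 8 looked up, summed to 7.46 and 9.87 CPM in young sows and 18.3 and 11.9 CPM in old sows. Of these, CD2, CD8A and NKG7 were higher in both old livers, and CD3D and LCK overlapped between the ages. CD2 alone was at 8.82 CPM in old replicate 1. Erythroid markers, mostly HBB, were lower, at 622 and 429 CPM against 306 and 405 CPM, and the 4 B and plasma cell markers overlapped, at 2.56 and 4.51 CPM against 12.4 and 2.42 CPM. The part of these cells in the GPX4 difference was not tested.

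**Figure D1:**
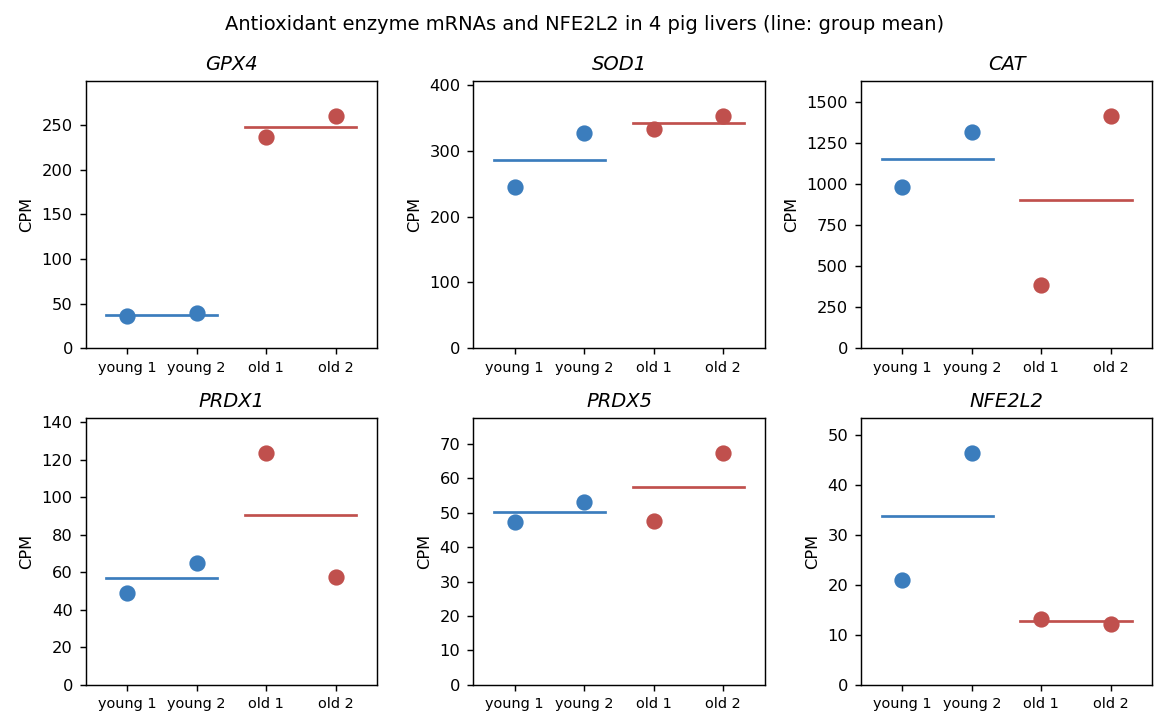
CPM (linear axes from 0) of GPX4, SOD1, CAT, PRDX1, PRDX5 and NFE2L2 in each of the 4 livers, with a line at the mean of each age group. GPX4 lies at 35.6 and 39.4 CPM in young sows and at 236 and 260.5 CPM in old sows, NFE2L2 is lower in both old livers, and CAT and PRDX1 set old replicate 1 apart from the other 3 livers.

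SOD1, the copper and zinc superoxide dismutase of the cytosol, was nearly level across the livers. It was at 244 CPM in young replicate 1, 327 CPM in young replicate 2, 333 CPM in old replicate 1 and 353 CPM in old replicate 2. Both old values lay above both young values, but young replicate 2 was closer to the old livers than to the other young liver. The SOD1 difference was 0.28 (standard error 0.20), and it was 0.07 without young replicate 1. CCS, the chaperone that loads copper onto SOD1, had 31.8 and 33.7 CPM in young sows and 24.7 and 18.6 CPM in old sows, a difference of -0.59 (standard error 0.19).

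CAT, the catalase of peroxisomes, differed more between the old livers than between the ages. It was at 979 and 1319 CPM in young sows, 386 CPM in old replicate 1 and 1415 CPM in old replicate 2. Old replicate 2 was thus the highest of the 4 livers and old replicate 1 the lowest, and old replicate 2 held 3.67 times the level of old replicate 1. The CAT difference was -0.62 (standard error 0.76) and turned to 0.32 without old replicate 1.

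PRDX1, the main cytosolic peroxiredoxin, had the opposite pattern. Its level was 48.7 and 65.1 CPM in young sows, 124 CPM in old replicate 1 and 57.5 CPM in old replicate 2, which lay between the young values. Old replicate 1 held 2.15 times the PRDX1 level of old replicate 2. The PRDX1 difference was 0.58 (standard error 0.47), and without old replicate 1 it was 0.03.

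PRDX5, a peroxiredoxin of mitochondria and peroxisomes, was at 47.4 and 53.2 CPM in young sows and at 47.6 and 67.5 CPM in old sows. The groups overlapped, and the PRDX5 difference of 0.17 (standard error 0.23) was smaller than its error. Without old replicate 2 it was -0.07.

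NFE2L2, which encodes NRF2, was lower in both old livers. It was at 21.0 and 46.5 CPM in young sows, a 2.21-fold gap between animals of one age, and at 13.3 and 12.3 CPM in old sows. The young mean was 2.64 times the old mean. The NFE2L2 difference was -1.23 (standard error 0.45) and ranged from -1.79 to -0.68 with 1 library left out, so young replicate 2 set much of its size. In the RefSeq order the NFE2L2 span overlaps those of AGPS and HNRNPA3. The libraries were made with a directional kit, but whether reads were counted by strand is not stated. AGPS, an enzyme of ether lipid synthesis, was also lower in old sows, at 1.38 and 1.52 CPM against 3.40 and 3.25 CPM. MTX2, the nearest gene on the other side with a mean of at least 1 CPM, does not overlap NFE2L2. It was at 3.67 and 3.59 CPM in old sows against 3.85 and 3.26 CPM, a difference of 0.03 (standard error 0.13).

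Across the 6 genes, both old livers lay above both young livers for GPX4 and SOD1 and below them for NFE2L2. Among all mRNAs tested, 24.4% lay above and 25.0% below in the same way, and nothing is read from the count over the 6. Scaling by TMM factors raised old against young livers by 0.20 on the log2 scale and changed the sign of none of the 6 differences. How reads shared with near-identical gene copies were counted is not stated, so levels of genes with such copies are uncertain to that extent.

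**Figure D2:**
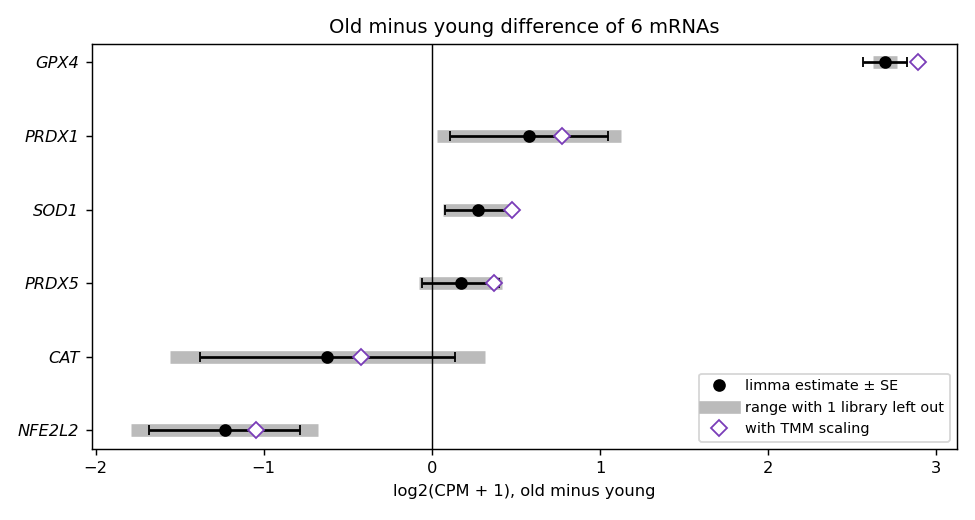
Old minus young difference on log2(CPM + 1) of the 6 mRNAs (point, limma estimate; whisker, standard error; grey bar, range with 1 of the 4 libraries left out; diamond, with TMM scaling). The bar of GPX4 spans only 2.62 to 2.77, whereas that of CAT crosses 0, from -1.56 to 0.32.

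The mRNAs whose profiles over the 4 livers were most like each gene were taken from 1467 mRNAs with a symbol and a mean of at least 10 CPM. Likeness was the Euclidean distance between log2(CPM + 1) values centred on their mean, a description over 4 livers. Closest to GPX4 was CFD, the serine protease complement factor D, at 5.26 and 5.30 CPM in young sows and 44.1 and 51.3 CPM in old sows (distance 0.28). IER2 followed at a distance of 0.49. For PRDX1 they were RHOC (0.14) and UBD (0.25), both with old replicate 1 alone high: UBD was at 20.7 CPM there and between 6.64 and 8.56 CPM in the other livers. For CAT they were HIBADH (0.19), an enzyme of valine breakdown, and MMP19 (0.19). HIBADH was at 24.0 CPM in old replicate 1 and at 62.9 to 81.1 CPM in the other livers. NFE2L2 was followed most closely by CREB3L3 (0.28), a liver-enriched transcription factor, and NME6 (0.37). SOD1 was nearest to RER1 (0.10) and CYSTM1 (0.13), and PRDX5 to GAMT (0.07) and MDH2 (0.11).

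To place these genes in their pathway, 102 further genes of redox defence were looked up in 8 lists by role, and 75 of them had an identifier. The lists too were drawn up with earlier results of these livers known, so their p-values and counts are descriptive. GPX6, an olfactory glutathione peroxidase, was listed at 0 in all 4 livers, and the other 74 genes were tested. With limma at an adjusted p-value under 0.05 and an absolute log2 difference above 1, 0 of the 74 passed, as did 0% of all mRNAs tested, for which the smallest adjusted p-value was 0.213. edgeR's quasi-likelihood test also called 0 of them, with 4 higher (5.41%) and 7 lower (9.46%) at an unadjusted p below 0.05, where 11.6% and 3.08% of all mRNAs were. The exact test of edgeR on whole reads called TALDO1 as higher and MT3 as lower in old livers, while it called 2.70% of all mRNAs as higher and 0.456% as lower. At an unadjusted p-value under 0.05 in limma, 5 of the 74 genes (6.76%) were higher in old sows and 14 (18.9%) were lower. The same shares over all mRNAs tested were 6.78% and 8.93%. Both old livers lay above both young livers for 11 genes (14.9%) and below them for 24 genes (32.4%). Over all mRNAs tested, 24.4% lay above and 25.0% below in this way.

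The median difference of the 74 genes was -0.14, against -0.02 for all mRNAs tested, and with TMM scaling it was -0.04 against 0.04. Without old replicate 1, 6 of the 74 genes were higher and 10 lower with an unadjusted p below 0.05, where 7.10% and 6.95% of all mRNAs were. Their median was then -0.25, against -0.03 for all mRNAs. TMM scaling left 6 higher and 12 lower of the 74 genes, where 8.86% and 5.65% of all mRNAs were, and over all mRNAs it moved the split from 1145 higher and 1509 lower to 1497 higher and 955 lower.

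**Figure D3:**
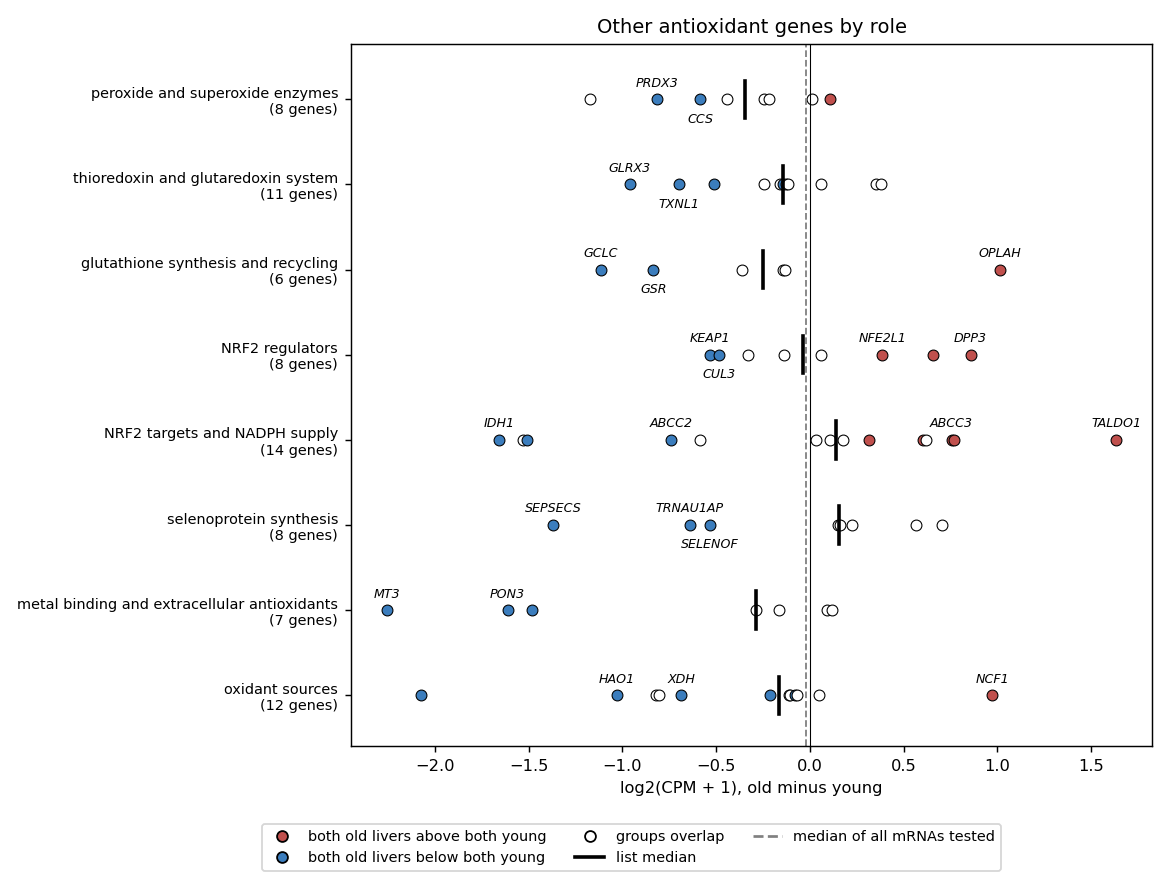
Old minus young difference on log2(CPM + 1) of the 74 tested genes in 8 lists by role, each circle a gene (red, both old livers above both young; blue, both below; white, overlap). Black ticks mark list medians, between -0.34 and 0.15, the dashed line the median of all mRNAs tested at -0.02, and no gene passed the adjusted threshold in limma.

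Among the other peroxide and superoxide enzymes, 0 of 8 tested genes were higher and CCS alone was lower with an unadjusted p below 0.05, with a list median of -0.34. For this and the following lists, of 6 to 14 genes, the same shares over all mRNAs tested were 6.78% higher and 8.93% lower in limma. PRDX3, the mitochondrial peroxiredoxin, was at 30.2 and 41.8 CPM in young sows and 15.8 and 24.8 CPM in old sows, a difference of -0.81 (standard error 0.32). PRDX2, a cytosolic peroxiredoxin, overlapped between the ages, at 89.5 and 102 CPM against 54.3 and 89.7 CPM. The gastrointestinal GPX2 and the extracellular SOD3 stayed at or under 0.381 CPM in every liver.

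In the thioredoxin and glutaredoxin system, 2 of 11 genes were lower with an unadjusted p below 0.05 and 0 were higher. GLRX3, a glutaredoxin that carries iron-sulfur clusters, was at 20.5 and 20.0 CPM in young sows and 10.24 and 9.63 CPM in old sows, a difference of -0.96 (standard error 0.11). TXNL1, a thioredoxin-like protein of the proteasome, was at 25.8 and 31.8 CPM against 16.6 and 17.9 CPM. Mitochondrial thioredoxin TXN2 was at 29.7 and 35.6 CPM in young sows and split the old livers, at 27.1 and 66.9 CPM. The reductase TXNRD1, which recharges cytosolic thioredoxin, was between 5.05 and 6.98 CPM in all livers, and its groups overlapped.

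Of 6 genes of glutathione synthesis and recycling, 1 was higher and 1 lower at that level. GSR, the reductase that regenerates glutathione with NADPH, was at 18.8 and 17.7 CPM in young sows and 8.94 and 10.7 CPM in old sows, a difference of -0.84 (standard error 0.14). GCLC, the catalytic subunit of the rate-limiting step of glutathione synthesis, was at 17.3 and 37.2 CPM against 7.69 and 16.2 CPM, and its difference of -1.11 had a standard error of 0.58. OPLAH, which returns oxoproline to glutamate in glutathione turnover, was higher, at 0.762 and 0.578 CPM in young sows and 2.21 and 2.53 CPM in old sows. GCLC and NFE2L2 were both highest in young replicate 2, as were GSS and SLC7A11 of this list. GSR and GGCT were highest in young replicate 1 and OPLAH in old replicate 2. This look was taken after the values had been seen, and a link to NFE2L2 was not tested.

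The 8 genes around NRF2 had a list median of -0.04. MAFF, a small MAF protein of the kind that pairs with NRF2 on DNA, was the 1 gene past an unadjusted p-value of 0.05, at 0.185 and 0.520 CPM in young sows and 1.17 and 1.06 CPM in old sows. MAFF lies outside the naming rule and is named because it made up the count. The inhibitor KEAP1 was at 2.56 and 2.46 CPM against 1.84 and 1.07 CPM, and CUL3 at 3.10 and 2.24 CPM against 1.33 and 1.91 CPM. DPP3, which can bind KEAP1, was at 3.89 and 3.20 CPM in young sows and at 11.9 CPM in old replicate 1, but at 4.20 CPM in old replicate 2. NFE2L1, the relative of NFE2L2, was at 5.46 and 7.33 CPM against 9.17 and 8.03 CPM. SQSTM1, the autophagy receptor that sequesters KEAP1, overlapped between the ages.

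Known NRF2 targets and NADPH-producing enzymes went both ways, with 2 of 14 genes higher and 3 lower with an unadjusted p below 0.05 and a list median of 0.14. TALDO1, transaldolase of the pentose phosphate pathway, was at 33.0 and 29.0 CPM against 104 and 92.4 CPM, a difference of 1.63 (standard error 0.14, adjusted p = 0.213 in limma). IDH1, which makes NADPH in the cytosol, was lower, at 101 and 85.4 CPM in young sows and 28.0 and 29.5 CPM in old sows, a difference of -1.66 (standard error 0.14). ABCC2, the canalicular export pump, was at 32.1 and 28.9 CPM against 15.6 and 20.2 CPM. NQO1, the quinone reductase often read as a marker of NRF2 activity, was at 4.69 and 7.51 CPM against 0.845 and 2.24 CPM, and it completes the count and was named after its values were seen. ABCC3, an export pump of the basolateral membrane, was higher, at 0.860 and 1.005 CPM against 1.79 and 2.81 CPM.

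GPX4 is a selenoprotein, so the machinery that inserts selenocysteine was listed too. Of 8 genes, 0 were higher and 2 lower with an unadjusted p below 0.05. SEPSECS, which makes the selenocysteine on its tRNA, was at 4.76 and 4.29 CPM in young sows and 0.861 and 1.45 CPM in old sows, a difference of -1.37 (standard error 0.19, adjusted p = 0.213 in limma). TRNAU1AP, which binds that tRNA, was at 3.74 and 2.96 CPM against 1.59 and 1.98 CPM. The selenoprotein SELENOF was at 23.5 and 37.7 CPM against 22.7 and 18.1 CPM. The other 5 genes overlapped between the ages and had differences above 0, from 0.15 for SECISBP2, which recruits the selenocysteine machinery to selenoprotein mRNAs, to 0.70 for SCLY, which releases selenium from selenocysteine. The list median was 0.15, and without old replicate 1 it was -0.44.

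Of the 7 genes for metal binding and extracellular antioxidants, 0 were higher and 3 lower with an unadjusted p below 0.05. The identifier with the symbol MT3, a metallothionein, was at 3458 and 5325 CPM in young sows and 862 and 936 CPM in old sows, a difference of -2.25 (standard error 0.27). Metallothionein genes are alike in sequence, and reads may have been split among them. PON3, a paraoxonase of lipoproteins, was at 59.3 and 99.8 CPM against 26.4 and 22.7 CPM. PON1, named because it completes the count, was at 287 and 239 CPM against 66.3 and 131 CPM. HPX, the haem carrier of plasma, overlapped between the ages at 2609 to 3857 CPM.

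Among 12 oxidant sources, 1 gene was higher and 2 lower at that level. NCF1, a subunit of the phagocyte NADPH oxidase, was at 0.457 and 0.763 CPM in young sows and 1.89 and 2.42 CPM in old sows, beside the macrophage and neutrophil values given above. HAO1, the hydrogen peroxide producing glycolate oxidase of peroxisomes, was at 62.9 and 77.8 CPM against 30.4 and 37.5 CPM, a difference of -1.03 (standard error 0.20). XDH, xanthine dehydrogenase, was at 39.3 and 35.3 CPM against 21.5 and 24.0 CPM.

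The old livers differed from each other in several of these genes, as CAT and PRDX1 had shown. The 4 widest gaps of the 74 genes on log2(CPM + 1), picked after the values were seen, were PRDX6, EPHX1, MAOB and AOX1, each lower in old replicate 1. PRDX6, a peroxiredoxin that reduces phospholipid hydroperoxides, was at 28.4 and 30.5 CPM in young sows, 3.38 CPM in old replicate 1 and 40.7 CPM in old replicate 2, a 12.05-fold gap. EPHX1, an epoxide hydrolase of drug metabolism, was at 170.3 and 292 CPM in young sows and 32.4 and 179 CPM in old replicates 1 and 2. MAOB was at 9.90 CPM in old replicate 1 against 55.5 CPM in old replicate 2, and AOX1 at 6.42 CPM against 36.8 CPM.

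Old replicate 1 stood apart in interferon-stimulated genes as well. All 13 measured genes of that list, of 20 looked up, exceeded both young livers in old replicate 1. Their summed level was 46.2 and 57.8 CPM in young sows, 1755 CPM in old replicate 1 and 38.9 CPM in old replicate 2, where 4 genes were above and 5 below both young livers. The part of this state in the CAT, PRDX1 and PRDX6 values was not tested. GPX4 and NFE2L2 kept their separation from the young livers in each old liver: GPX4 differed from the young mean by 2.62 in old replicate 1 and by 2.76 in old replicate 2, and NFE2L2 by -1.18 and -1.28, on log2(CPM + 1).

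**Figure D4:**
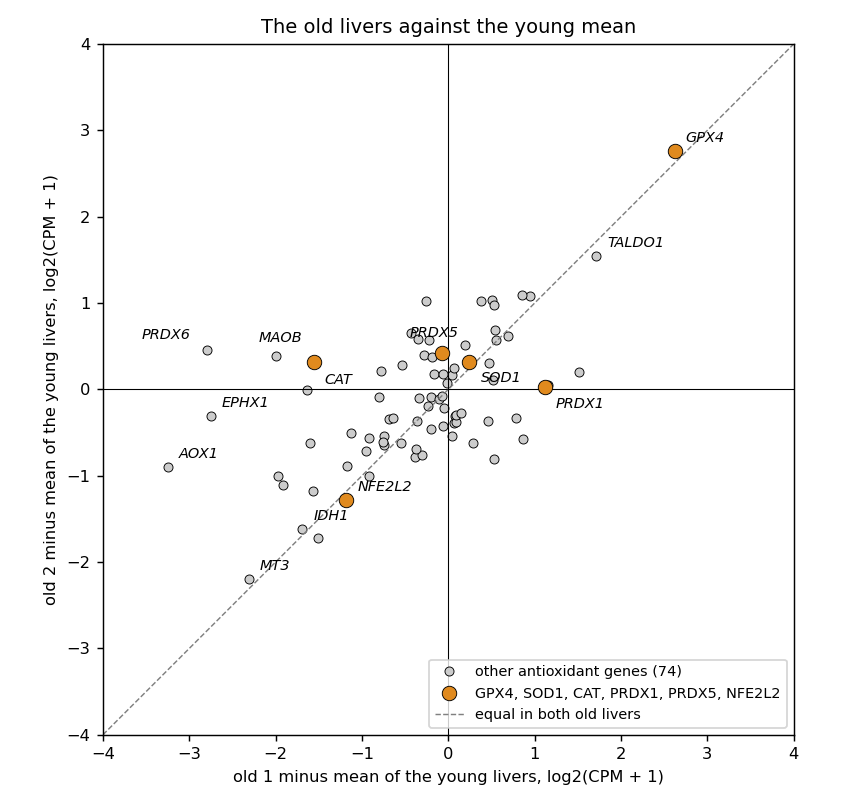
Difference of old replicate 1 (x axis) and of old replicate 2 (y axis) from the mean of the young livers on log2(CPM + 1), for the 6 genes (orange) and the 74 further genes (grey); both axes share the young mean. GPX4 and NFE2L2 lie near the dashed line of equal differences, at 2.62 and 2.76 and at -1.18 and -1.28, while PRDX6, CAT and PRDX1 lie far from it.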

How the data were processed

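The authors mapped filtered reads onto the Sscrofa10.2 genome by TopHat2 2.0.14, assembled transcripts with StringTie (1.2.3 in the submitters' processing notes) and credit their values, named TPM, to Salmon 0.6.0. As deposited, the mRNA values were whole multiples of 1 step per library (100% of values within 0.0006), so they are taken as CPM made by the authors without gene length. Whole reads were recovered by dividing by the step. PCR reads are not independent molecules.

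Differences were fitted with limma 3.58.1 (R 4.3.3) on log2(CPM + 1) over the 16898 mRNAs above 0 in at least 2 of the 4 libraries, with Benjamini-Hochberg adjustment over all of them and no covariates. Calls needed an adjusted p-value under 0.05 and an absolute log2 difference above 1. The exact and quasi-likelihood tests of edgeR 4.0.16 on whole reads were alternatives, and the fits were tested on simulated counts. Symbols came from a table that names 11654 of the 21607 identifiers. Members and lists were chosen with earlier results of these data known. A gene of the lists is not reported here. Named genes were all members and, per role list, up to 2 genes per direction with the smallest limma p-value among those with a mean of at least 1 CPM and no overlap between the ages, plus the gene with the highest mean CPM, a choice of names that ranks no levels. Each liver came from another sow, and no source used here says that equal replicate numbers mark a shared batch. The lncRNA, circRNA and miRNA tables were not used here.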

Additional observations from a re-analysis of the deposited data

How the results depend on the processing

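With 2 livers per age, limma called 0 mRNAs. Depth limits the genes of low level: 1 read was worth 0.0109 to 0.0162 CPM, and MPO rested on 2 reads in each old liver. A mean of at least 1 CPM gave 2 calls over all mRNAs, ENSSSCG00000007688 and ENSSSCG00000024080, and the exact test of edgeR gave 534, with 2 among the redox genes. The number of redox genes higher in old livers with an unadjusted p below 0.05 was 3 with a mean of at least 1 CPM. The number of redox genes lower in old livers with an unadjusted p below 0.05 was 9 with a pseudocount of 0.1, 6 in the exact test and 7 in the quasi-likelihood test, and from 9 (without young replicate 1) to 16 with 1 library left out. The GPX4 difference was 2.89 with TMM factors, 2.87 with median-of-ratios size factors, 2.93 in the exact test and 2.92 in the quasi-likelihood test. Of the 74 redox genes, 28 differences lay above 0 and 46 below, but 35 and 39 with TMM factors and in both edgeR tests. Among the named redox genes, the sign changes came with a library left out: TXN2 ranged from -0.26 (without old replicate 2) to 1.02, HPX from -0.19 (without old replicate 2) to 0.37, and SQSTM1 from -0.28 (without old replicate 2) to 0.40, with -0.02 without young replicate 1. The causes were not tested. The replicate numbers gave a correlation of 0.09 between the deviations of young replicate 1 and old replicate 1 over 16898 mRNAs. With the replicate block, 0 mRNAs and 0 redox genes were called, 5 redox genes were higher and 13 lower with an unadjusted p below 0.05, and the GPX4 difference stayed at 2.69.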
